A study of Homo sapiens with 8 samples.

Results

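The genes described here are 10 members of the circadian clock: the activators CLOCK and NPAS2, the repressors PER1, PER2, PER3, CRY1 and CRY2, the nuclear receptors NR1D1 and NR1D2, and the output factor DBP. They were chosen by name, and their probes were found through the RefSeq accession that each probe carries. All 10 were on the array, with 14 probes among 50599, and they are 10 of the 20503 genes that could be named. RNA was measured in MDAH and SKOV3 cells, both lines of epithelial ovarian cancer. For each line there were 2 control arrays of cells that were not silenced and 2 arrays of cells transduced with an shRNA against SFPQ, an RNA and DNA binding protein of the nucleus. One silenced array per line carried sh-SFPQ#2 and the other sh-SFPQ#3. The labels name both controls of a line as carrying the control shRNA, while the methods list a parental sample beside it. The hour of collection is not given in the sources used here, and no treatment to synchronise the cells is named. Each group is a single cell line, and whether its arrays were collected together is not stated. The p-values measure the spread between these samples, which in silenced cells includes the difference between the 2 shRNAs. The labels do not say whether the 2 controls of a line came from separate cultures, so their spread may be technical. If a control was parental, the spread of the controls and the silencing changes would also include transduction, which was not tested.

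The circadian clock is a feedback loop of transcription that runs in most cells with a period of about a day. CLOCK or its close relative NPAS2 binds DNA together with BMAL1 at E-box elements and turns on the PER, CRY, NR1D1, NR1D2 and DBP genes. The PER and CRY proteins then return to the nucleus and repress their own activators, NR1D1 and NR1D2 repress BMAL1 through ROR elements, and DBP acts at D-box elements of output genes. SFPQ has been found in PER complexes. In cells that are not synchronised, a signal from the whole culture averages over cells at all phases. A phase or a rhythm cannot be read from samples whose times are not given.

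Values are the log2 signal of a gene's brightest probe minus the 75th percentile of its array, so that 0 is the level of that percentile. A level of one gene was not set against that of another, since probes differ in brightness. On all 8 arrays 12 of the 14 probes exceeded background clearly (the scanner software's flag "well above background"), the exceptions being both probes of PER3, and no value was saturated. The 75th percentile lay at an intensity of 244 on the MDAH array with sh-SFPQ#3 and between 387 and 496 on the other 7 arrays. SFPQ itself read 3.64 and 3.91 for the MDAH controls, against 2.45 with sh-SFPQ#2 and 2.10 with sh-SFPQ#3. On the SKOV3 arrays it stood at 4.84 and 4.66 in controls and at 3.01 and 2.48 in silenced cells. The fitted decrease was 2.83-fold in MDAH cells (adjusted p = 0.0328) and 4.02-fold in SKOV3 cells (adjusted p = 0.0299). Of the 9 epithelial markers, 8 were well above background on every MDAH array and on the 2 silenced SKOV3 arrays, and 6 on the 2 SKOV3 controls, where CDH1 and MUC16 did not reach that flag. MUC16 was not well above background on any MDAH array and WT1 on no SKOV3 array. Of the 6 mesenchymal and fibroblast markers 2 to 4 were above background, with summed signals of 165 to 176 times the 75th percentile in MDAH controls, 209 to 239 in silenced MDAH, 325 to 335 in SKOV3 controls and 260 to 269 in silenced SKOV3 cells. These sums were almost entirely VIM, at log2 8.34 and 8.39 in SKOV3 controls and 8.07 and 8.01 in silenced SKOV3 cells. COL1A1 and DCN went the other way there, with COL1A1 at -2.16 and -2.76 against -1.50 and -0.96. DCN was at -3.90 and -3.85 against -1.82 and -2.18, while COL1A2 overlapped. Of the 4 leukocyte markers 2 to 3 and of the 3 endothelial markers 1 to 3 were above background, with a summed signal of 0.462 to 0.825 and of 0.146 to 0.289 times the 75th percentile, against 373 to 619 for the epithelial markers. CD3E, LUM and PDGFRB were not well above background on any array. The part of other cell types in the results was not tested, and fewer cells of a type and less RNA per cell cannot be told apart here.

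**Figure D1:**
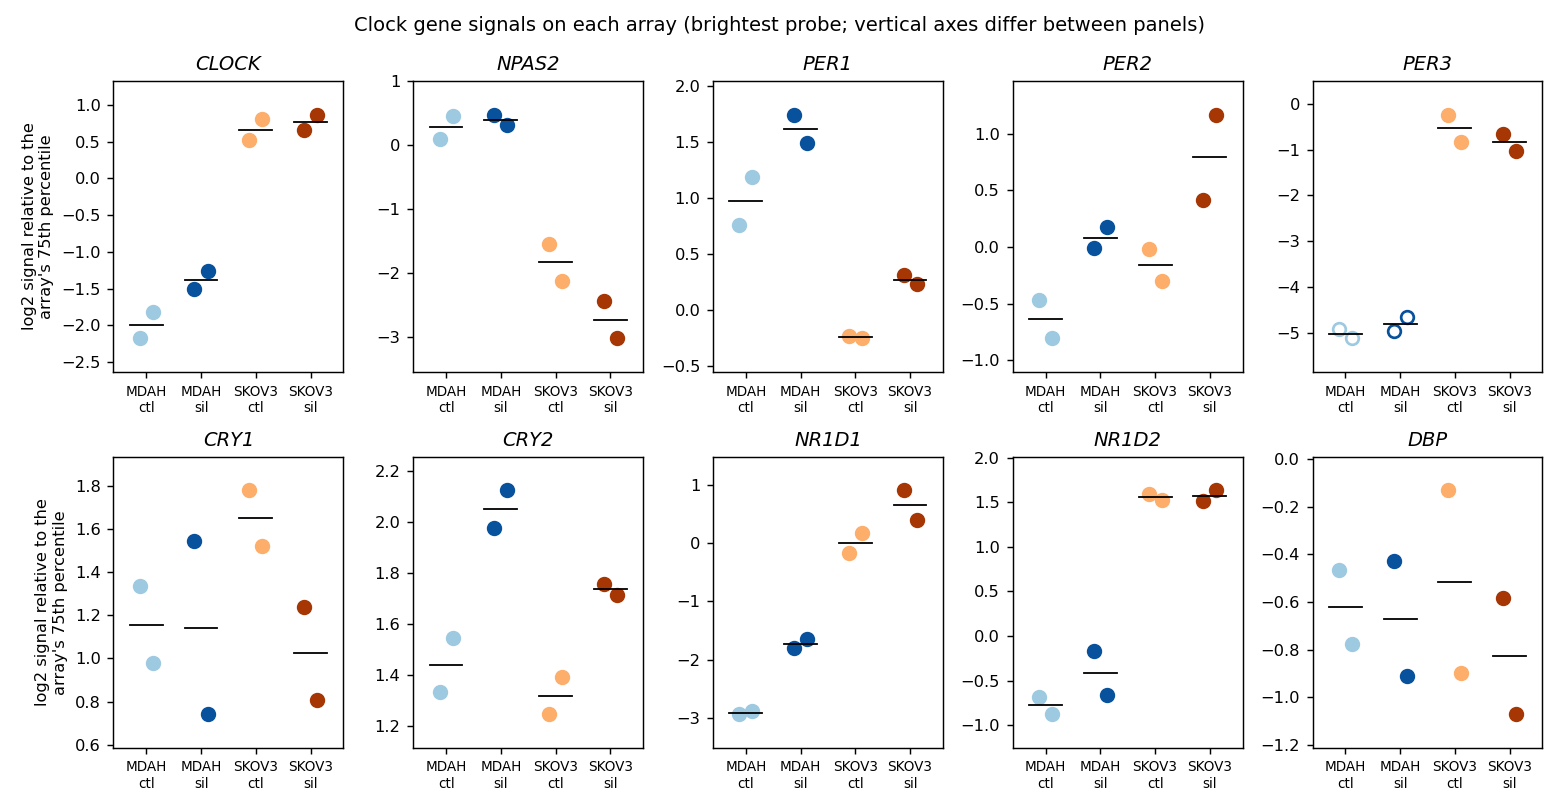
Signal of the 10 clock genes on each of the 8 arrays. The vertical axes show log2 signals of brightest probes, with each array's 75th percentile at 0, and differ between panels; dots are arrays, horizontal lines are means of the 2 arrays, open dots are values not well above background, and ctl and sil stand for control and SFPQ-silenced cells. NR1D1 is at -2.93 and -2.88 in MDAH controls against -1.80 and -1.64 in silenced cells, while PER3 is not well above background on any MDAH array.

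The first question was whether the clock genes change when SFPQ is silenced. Across both lines the REV-ERB receptor NR1D1 and the cryptochrome CRY2 rose, by 1.89-fold and 1.43-fold, and both silenced arrays lay above both controls in each line. PER1 and PER2, the light- and hormone-responsive period genes, had fitted values of 1.49-fold and 1.79-fold with the same order of arrays and missed the threshold. The other 6 genes did not pass in any of the silencing comparisons.

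NR1D1 encodes a nuclear receptor that binds heme and represses transcription. Its signal was -2.93 and -2.88 on the MDAH controls and -1.80 and -1.64 on the silenced arrays. In SKOV3 cells it was -0.18 and 0.17 in controls against 0.90 (sh-SFPQ#2) and 0.39 (sh-SFPQ#3). The silenced arrays were higher in both lines without overlap, with a narrower gap for sh-SFPQ#3 in SKOV3 cells. The fitted log2 change was 1.18 in MDAH (SE 0.22, adjusted p = 0.0528), 0.65 in SKOV3 (SE 0.22, adjusted p = 0.186) and 0.92 on average (SE 0.15, 95% interval 0.55 to 1.28, adjusted p = 0.0281). Only the average passed. The average no longer passed without either MDAH control (adjusted p = 0.132 and 0.111), without MDAH sh-SFPQ#3 (0.0656), or without either SKOV3 control (0.0852 and 0.0570), with fitted changes between 0.828 and 1.003. With no filter on dim probes its adjusted p was 0.0529. With normexp and quantile normalization the average was smaller, 0.66, and passed (adjusted p = 0.0189). The MDAH change ranged from 0.72 to 1.29 over the alternatives.

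CRY2, a repressor that binds CLOCK and BMAL1, was bright on every array. It stood at 1.33 and 1.54 in MDAH controls against 1.98 and 2.12 in silenced cells. The corresponding values in SKOV3 cells were 1.25 and 1.39 against 1.76 and 1.71. All 4 silenced arrays were thus higher than the controls of their line, and the values of the 2 shRNAs differed by 0.15 at most. The log2 change was 0.61 in MDAH (SE 0.15, adjusted p = 0.0959), 0.42 in SKOV3 (SE 0.15, adjusted p = 0.209) and 0.51 on average (SE 0.11, 95% interval 0.26 to 0.77, adjusted p = 0.0461). The average passed without MDAH sh-SFPQ#2 (adjusted p = 0.0425) and failed without MDAH control 1 (0.178), MDAH control 2 (0.118), MDAH sh-SFPQ#3 (0.0965), SKOV3 control 1 (0.146), SKOV3 control 2 (0.105), SKOV3 sh-SFPQ#2 (0.0678) or SKOV3 sh-SFPQ#3 (0.103). With no filter on dim probes it was 0.0810.

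PER1, a repressor whose transcription responds quickly to signals, was at 0.76 and 1.18 in MDAH controls and at 1.74 and 1.49 in silenced cells. SKOV3 controls were at -0.24 and -0.25 and silenced cells at 0.31 and 0.23. The 2 SKOV3 controls nearly coincided, and the groups did not overlap in either line. The log2 change was 0.64 in MDAH (adjusted p = 0.123) and 0.51 in SKOV3 (adjusted p = 0.209). The average log2 change was 0.58 (SE 0.13, 95% interval 0.26 to 0.90, adjusted p = 0.0562).

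PER2, the partner of PER1 in the repressor complex, was measured by a bright and a dim probe. The bright probe stood at -0.47 and -0.81 in MDAH controls and at -0.01 and 0.18 in silenced cells. Its SKOV3 values were -0.02 and -0.30 in controls and 0.42 and 1.17 in silenced cells. The value with sh-SFPQ#3 in SKOV3 cells was the highest of the 8, and the groups did not overlap within either line. The average change was 0.84 by the bright probe (SE 0.20, adjusted p = 0.0581) and 0.67 by the dim probe (SE 0.14), which passed when every probe was tested on its own (adjusted p = 0.0382).

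The place of these 4 genes above the controls was also read without scaling. The unscaled intensities of all 4 were higher on both silenced SKOV3 arrays than on both controls. On the MDAH array with sh-SFPQ#3, whose 75th percentile was the lowest, the unscaled intensity of NR1D1 was 78.1 against 65.2 and 65.7 in controls. There CRY2 was at 1063 against 1248 and 1408, and PER1 at 685 against 840 and 1096. Unscaled PER2 was at 276 against 359 and 276. On that array, CRY2, PER1 and PER2 were thus above both controls only after scaling, while on the MDAH array with sh-SFPQ#2 all 4 genes were higher unscaled too.

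**Figure D2:**
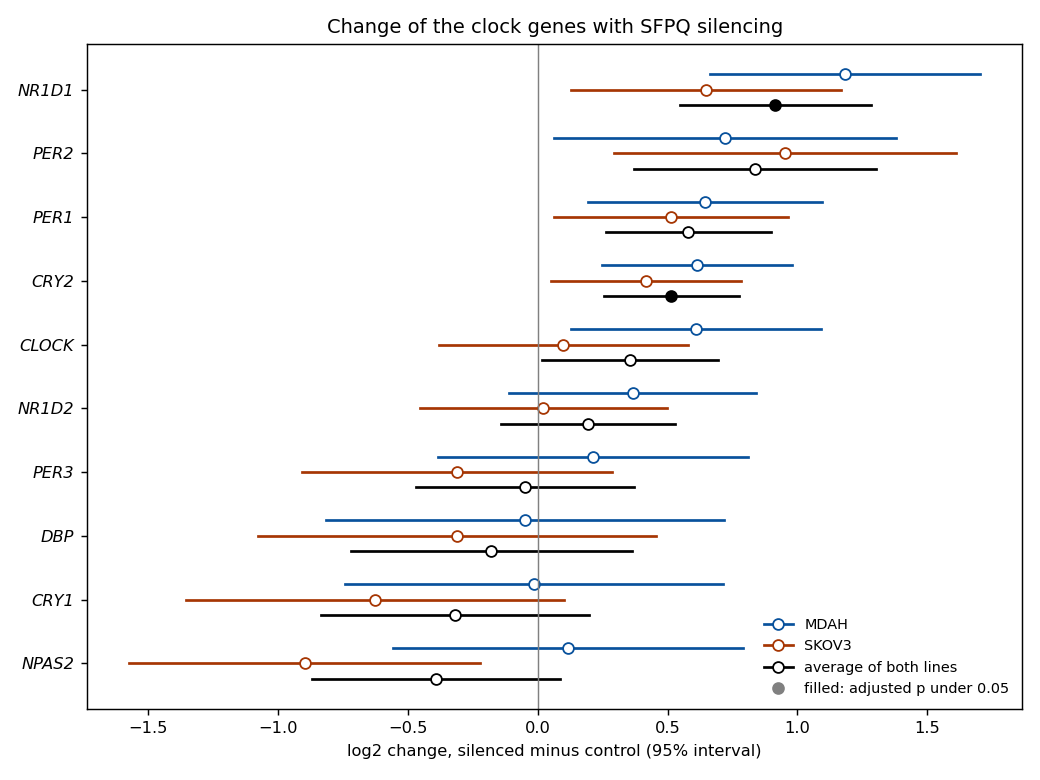
Change of each clock gene with SFPQ silencing, as the fitted log2 signal of silenced minus control cells. Dots are fitted values for MDAH, SKOV3 and the average of both lines, lines are 95% intervals, and filled dots passed an adjusted p of 0.05; the MDAH value of PER3 comes from signals not well above background. Only NR1D1 (0.92) and CRY2 (0.51) are filled, in the average.

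CLOCK, the activator with a bHLH-PAS domain, gave different readings by probe. Its brightest probe was at -2.18 and -1.81 in MDAH controls and at -1.51 and -1.27 in silenced cells. The second probe was at -2.21 and -2.20 in controls and at -2.44 and -2.18 in silenced cells. The MDAH change was thus 0.61 by the first probe (SE 0.20, adjusted p = 0.149) and -0.11 by the second, so that the probes disagreed in sign. In SKOV3 cells the first probe was at 0.52 and 0.80 in controls and at 0.66 and 0.87 in silenced cells, which overlapped.

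NPAS2, the relative that can replace CLOCK, was at 0.10 and 0.46 in MDAH controls and at 0.48 and 0.31 in silenced cells. The SKOV3 controls were at -1.54 and -2.13 and the silenced cells at -2.44 and -3.03. The MDAH groups overlapped, whereas both silenced SKOV3 arrays were below both controls. The SKOV3 change was -0.90 (SE 0.28, 95% interval -1.57 to -0.22, adjusted p = 0.167). The test of the difference between the lines gave 1.01 (SE 0.40, unadjusted p = 0.0405, adjusted p = 0.320).

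CRY1, the second cryptochrome, stood at 1.33 and 0.98 in MDAH controls and at 1.54 and 0.74 in silenced cells, so that the shRNAs fell on either side of the controls. In SKOV3 cells it stood at 1.78 and 1.52 in controls and at 1.24 and 0.81 in silenced cells, without overlap. The SKOV3 change was -0.63 (SE 0.31, 95% interval -1.36 to 0.10, adjusted p = 0.319). The averages of the 2 cryptochromes were thus 0.51 for CRY2, which passed, and -0.32 for CRY1 (95% interval -0.84 to 0.20), which did not.

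NR1D2, the relative of NR1D1, was at -0.68 and -0.88 in MDAH controls and at -0.16 and -0.66 in silenced cells. In SKOV3 cells it stayed between 1.52 and 1.64 on all 4 arrays. Its MDAH change was 0.37 by the brightest probe (SE 0.20, 95% interval -0.11 to 0.84, adjusted p = 0.317) and 0.58 by the second probe (SE 0.15, adjusted p = 0.0921). The SKOV3 change was 0.02 (95% interval -0.46 to 0.50). On average the change was 0.19 (adjusted p = 0.421).

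DBP, the transcription factor of the PAR bZIP family and an output gene of the clock, was at -0.47 and -0.78 in MDAH controls and at -0.43 and -0.91 in silenced cells. In SKOV3 cells the controls were at -0.13 and -0.90 and the silenced arrays at -0.58 and -1.07. Groups overlapped in both lines, and the 2 SKOV3 controls differed by 0.77 from each other. The average change was -0.18 (95% interval -0.72 to 0.36, adjusted p = 0.649).

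PER3, the third period gene, was not well above background on any MDAH array by its brightest probe, so no fold is given there. In SKOV3 cells it was at -0.24 and -0.83 in controls and at -0.66 and -1.03 in silenced cells, which overlapped. The SKOV3 change was -0.31 (95% interval -0.91 to 0.28, adjusted p = 0.518).

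Read as a group, 0 of the 10 genes passed in MDAH cells, where 2.03% of all 15552 genes tested did, and 0 of 10 passed in SKOV3 cells, where 0.997% did. At an unadjusted p under 0.05, limma gave 5 of the 10 in each line, against 23.1% of all genes in MDAH and 19.5% in SKOV3 cells. In the average 2 of 10 passed, both higher, where 5.66% of all genes passed and 2.02% passed with a higher signal. In the difference between the lines 0 of 10 passed (0.0965% of all genes), with 1 at an unadjusted p under 0.05 (14.9% of all genes). The median change of the 10 genes was 0.49 in MDAH, 0.06 in SKOV3 and 0.27 on average, beside 0.10, -0.04 and 0.04 for all genes. With the mean of all probes of a gene these medians were 0.36, -0.02 and 0.17, beside 0.11, -0.03 and 0.04. The silenced arrays lay on one side of the controls for 6 genes in MDAH cells, where 57.0% of all genes did so, and for 6 in SKOV3 cells (58.0%). For 4 genes they did so in both lines on the same side (22.7% of all genes), and in all 4, NR1D1, CRY2, PER1 and PER2, on the higher side (12.4%). The counts of non-overlapping groups in single lines were near those of all genes.

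The 2 shRNAs did not order the genes in one way. NPAS2, PER1, CRY1 and DBP were lower with sh-SFPQ#3 than with sh-SFPQ#2 in both lines, CLOCK and PER2 were higher in both, and the other 4 had opposite orders. The gap was widest for CRY1 in MDAH cells (-0.80) and for PER2 in SKOV3 cells (0.75), where SFPQ itself differed by -0.35 and -0.53. With 1 array per shRNA and line these gaps are descriptions.

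**Figure D3:**
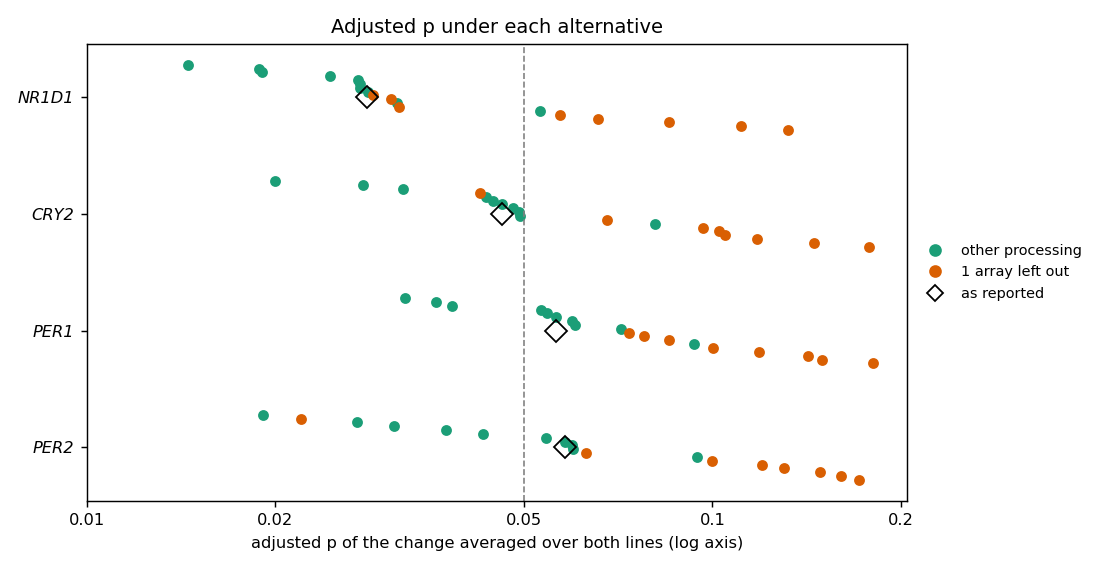
Adjusted p of the average change of NR1D1, CRY2, PER1 and PER2 under each alternative, on a log axis. Green dots are other ways of processing, orange dots leave out 1 array, diamonds are the reported values, the dashed line marks 0.05, and the vertical order within a gene has no meaning. NR1D1 passes in 12 and CRY2 in 10 of 18 alternatives, PER2 in 6 and PER1 in 3.

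The promoters of 3 genes are shown because the PER and NR1D genes are classical E-box targets. The 4 genes that were higher in both lines differ in the exact matches found near their starts. The sequences are the 250 bases before the start of transcription in RefSeq, on build GRCh38.p14, 5′ to 3′ on the strand of the gene, with matched letters in capitals. All 10 genes had an entry, 14 starts in all. PER1 lies on the minus strand at chr17:8152405-8152654, with the E-box CACGTG at -173 to -168 and the D-box TTATGCAA at -30 to -23 from the start. NR1D1, on the minus strand at chr17:40100590-40100839, held no exact match to the motifs searched, and variants of the E-box were not searched. NR1D2, at one of its 2 starts on the plus strand at chr3:23945871-23946120, held 2 E-boxes, at -155 to -150 and -105 to -100, and a D-box match on the opposite strand.
PER1: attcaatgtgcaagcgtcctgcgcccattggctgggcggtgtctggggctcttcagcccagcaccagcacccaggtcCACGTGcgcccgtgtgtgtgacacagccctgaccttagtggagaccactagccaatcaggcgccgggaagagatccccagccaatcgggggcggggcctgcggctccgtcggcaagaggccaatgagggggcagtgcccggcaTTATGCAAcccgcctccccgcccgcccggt
NR1D1: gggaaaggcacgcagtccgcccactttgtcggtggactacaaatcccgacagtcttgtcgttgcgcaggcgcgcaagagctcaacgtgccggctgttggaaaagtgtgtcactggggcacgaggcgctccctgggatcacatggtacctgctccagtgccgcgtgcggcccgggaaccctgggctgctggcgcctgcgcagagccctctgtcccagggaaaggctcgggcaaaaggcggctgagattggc
NR1D2: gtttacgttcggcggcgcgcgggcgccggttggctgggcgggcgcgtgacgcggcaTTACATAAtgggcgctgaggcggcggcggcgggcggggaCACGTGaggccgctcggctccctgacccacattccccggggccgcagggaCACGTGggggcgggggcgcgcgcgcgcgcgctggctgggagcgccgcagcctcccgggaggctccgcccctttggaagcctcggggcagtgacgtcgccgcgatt
Both strands were searched in 250 bases before and 50 after each start for the E-box (CACGTG), the D-box (TTATGNAA), the ROR element (ANTNGGTCA) and the cAMP response element (TGACGTCA). Only these letters counted, so a promoter without a match may hold a variant. The E-box was in 2 of the 14 promoters of these genes, from PER1 and NR1D2, and in 7.26% of all 35116 promoters of that length. The D-box was in 3 of the 14, from PER1, NR1D2 and PER3 (3.30% of all promoters). The ROR element was in 1 of the 14, at 1 of the 2 starts of CLOCK (1.97%), while the cAMP response element was in none (1.85%). Of the 4 genes that were higher on all silenced arrays, PER1 held exact matches in this window, and NR1D1, CRY2 and PER2 held none. Bases outside the window were not searched. Whether the motifs bear on the silencing changes was not tested. A match is a stretch of letters and not a measured site.

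The second question was how the lines compare without silencing. Log2 differences between control cells reached -2.90 among those of the 10 genes well above background in both lines, where the silencing changes reached 1.18. MDAH cells had less CLOCK, NR1D1, NR1D2 and PER3 and more NPAS2 and PER1 than SKOV3 cells, so that the 2 relatives CLOCK and NPAS2 ran in opposite directions. In all, 6 of the 10 genes passed, where 57.5% of all genes did, and for 8 the 2 MDAH controls lay on one side of both SKOV3 controls, where 85.2% of all genes did. The 2 shares are close to those of all genes.

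CLOCK was 6.32-fold lower in MDAH controls by its brightest probe (log2 difference -2.66, SE 0.20, adjusted p = 7.15e-05) and the second probe gave -2.81. NPAS2 was 4.33-fold higher (2.12, SE 0.28, adjusted p = 0.000849). Among the PER genes, PER1 was 2.32-fold higher in MDAH cells (1.22, SE 0.19, adjusted p = 0.00163). PER3 went the other way. It stood at -0.24 and -0.83 in SKOV3 controls and was not well above background in MDAH controls, which makes it at least 20.3-fold lower there by its brightest probe and with the scaling used here (adjusted p = 1.99e-05). Its second probe was well above background on 1 MDAH array, the first control, at -4.57 against -1.68 and -1.75 in SKOV3 controls, and gave a fitted log2 difference of -3.56, a smaller fold than that bound. With normexp and quantile normalization the brightest probe gave -2.19, also a smaller fold.

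Both nuclear receptors were lower in MDAH cells. NR1D1 was 7.46-fold lower (log2 difference -2.90, SE 0.22, adjusted p = 7.02e-05), and NR1D2 was 5.04-fold lower (-2.33, SE 0.20, adjusted p = 0.000123), with -2.65 by its second probe. With normexp and quantile normalization the difference of NR1D1 was -2.06. PER2 (-0.48, 95% interval -1.14 to 0.18), CRY1 (-0.49, -1.22 to 0.24), CRY2 (0.12, -0.25 to 0.49) and DBP (-0.11, -0.87 to 0.66) did not pass. The dim PER2 probe gave -0.70 (adjusted p = 0.0182 over all probes). In silenced MDAH cells NR1D1, at -1.80 and -1.64, lay below the SKOV3 controls at -0.18 and 0.17.

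**Figure D4:**
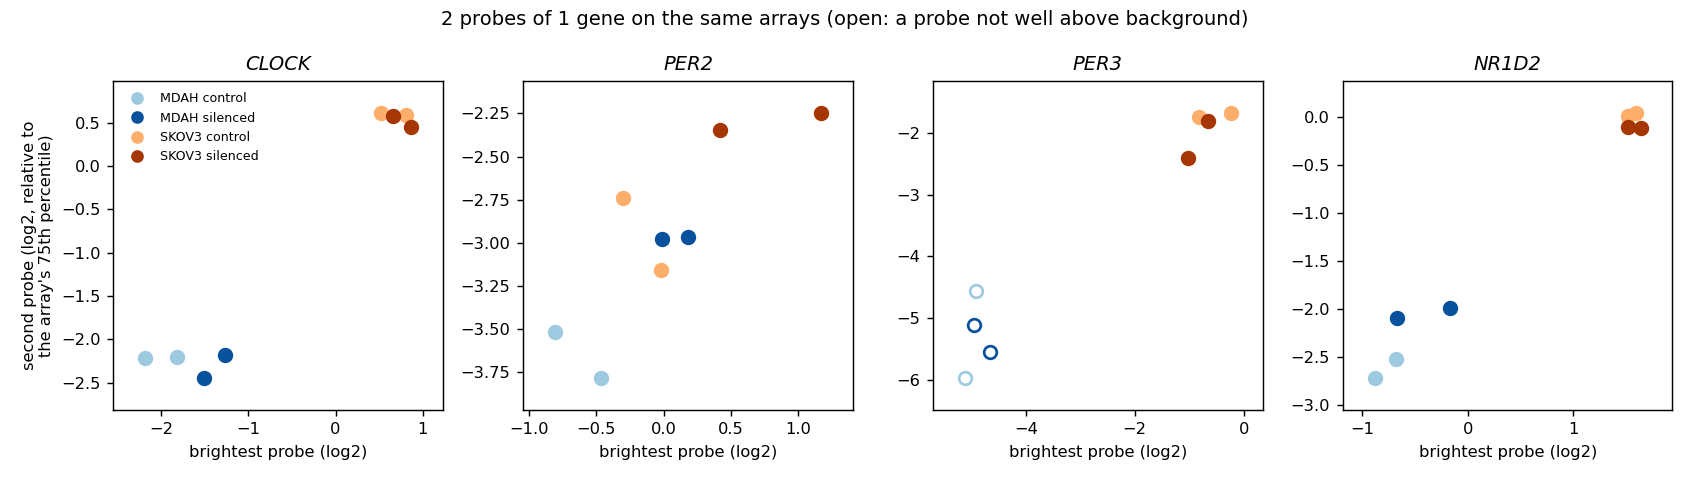
Second probe against brightest probe of the 4 genes with 2 probes, each dot 1 array, in log2 units with the array's 75th percentile at 0. Open dots have a probe not well above background. The probes of CLOCK separate the lines alike but disagree on the MDAH silenced arrays, where the brightest probe gave -1.51 and -1.27 and the second -2.44 and -2.18.

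Of 37 other genes of the clock, 36 were on the array and 32 were tested. None passed in MDAH, in SKOV3, on average or in the difference, against 9, 1, 5 and 2 at an unadjusted p under 0.05 in limma, where 23.1%, 19.5%, 26.4% and 14.9% of all genes were. Their median change was 0.15 in MDAH and -0.11 in SKOV3 cells. The highest averages were those of BHLHE40, a repressor that competes at E-boxes (0.59, SE 0.15, adjusted p = 0.0698), and PSPC1, a partner of SFPQ in paraspeckles (0.46, SE 0.20, adjusted p = 0.206). The lowest were BTRC, a subunit of the ligase that marks PER proteins for decay (-0.89, SE 0.26, adjusted p = 0.0942), and KAT2B, an acetyltransferase (-0.41, SE 0.18, adjusted p = 0.198). BTRC was at 0.16 and 0.15 in MDAH controls and at -0.42 and -1.48 in silenced cells, with the lower value for sh-SFPQ#3. BMAL1, the partner of CLOCK and NPAS2, had an average change of 0.08 (adjusted p = 0.807).

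Between the control cells, 5 of the 32 were higher and 16 lower in MDAH than in SKOV3, where 57.5% of all 15552 genes passed, 4169 of them higher and 4772 lower. BMAL1 was 2.05-fold higher in MDAH cells (adjusted p = 0.0137) and BMAL2 3.45-fold lower (adjusted p = 0.00047). Of the 5 repressors tested besides PER and CRY, CIPC was higher (0.65), while CIART, BHLHE41 and TIMELESS were lower. CIART, which was not well above background in MDAH controls, was at least 27.9-fold lower, BHLHE41 was 15.8-fold lower and TIMELESS 2.58-fold lower. BHLHE41 was near the floor in MDAH controls, at -4.53 and -4.75, where the dimmest probes flagged above background read -4.87 and -4.89. The output factors went apart, with TEF lower by a log2 difference of -3.46 and NFIL3 1.79-fold higher. Among the kinases, GSK3B and CSNK1D were lower (-1.84 and -0.93) and CSNK1E was higher (0.58). Of the 5 co-regulators, KAT2B, EP300 and HDAC3 were lower (-1.51, -0.58 and -0.56) and NCOR1, which works with the REV-ERB receptors, was higher (1.08). Of the 9 proteins of PER complexes, DDX5, SUV39H1, NONO, WDR5 and DHX9 were lower, by log2 differences of -1.36 to -0.82, and none was higher. Neither ROR receptor tested, RORA or RORB, passed.

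**Figure D5:**
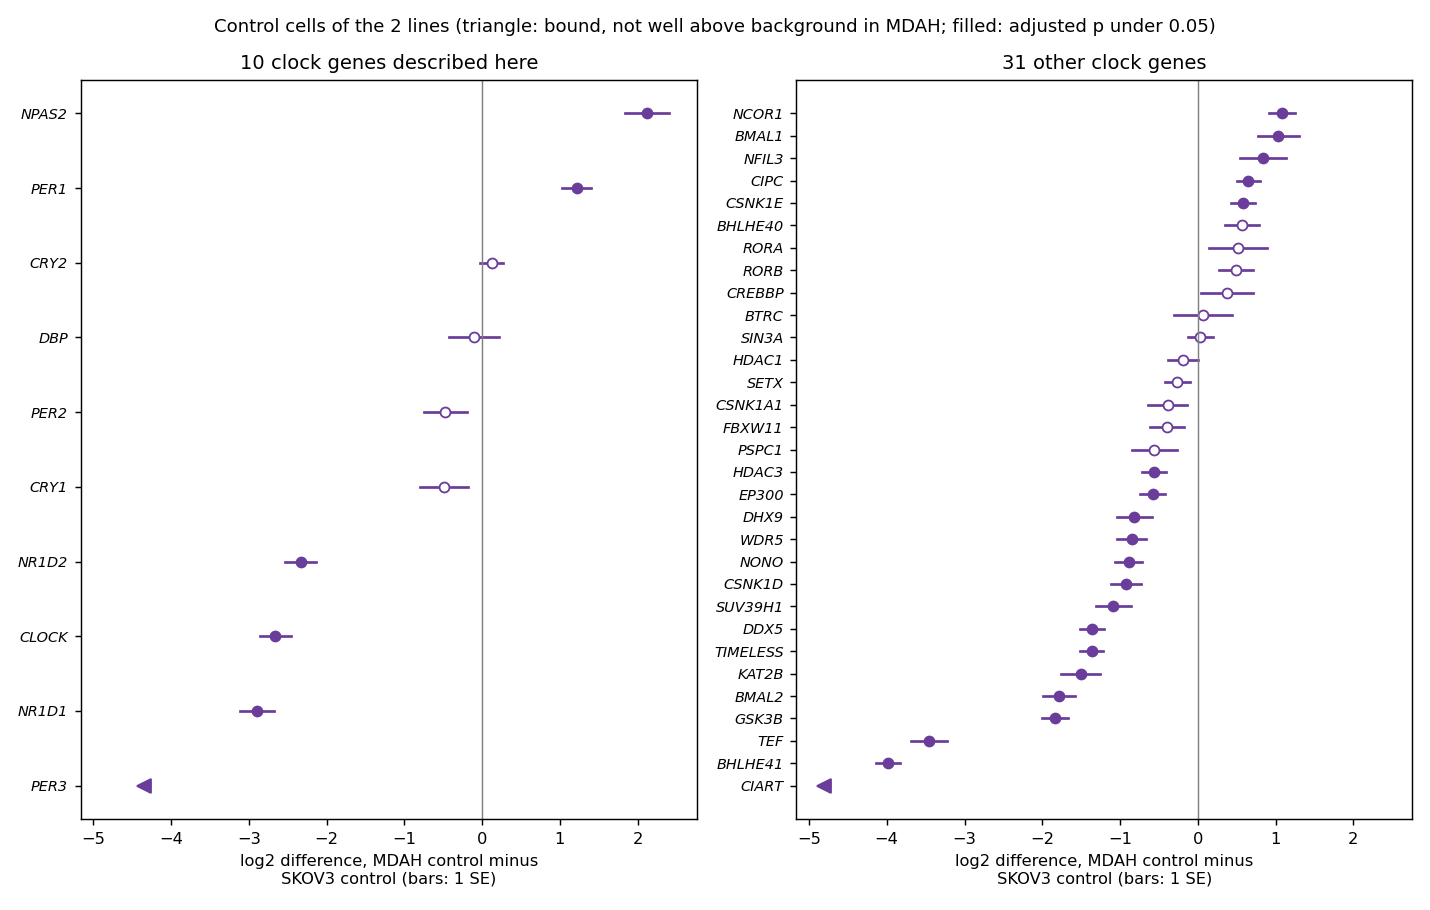
Log2 difference between MDAH and SKOV3 control cells for the 10 clock genes and for other clock genes tested, 1 of which is not shown. Dots are fitted values with bars of 1 SE, filled where the adjusted p was under 0.05; triangles mark bounds of the brightest probe, at least 20.3-fold for PER3 and 27.9-fold for CIART. PER3, NR1D1, CLOCK and NR1D2 lie far to the left and NPAS2 (2.12) to the right.

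For each gene well above background on all 8 arrays, the gene outside the clock lists with the most similar profile was sought among 12344 genes, by Pearson r over 8 arrays. The partner of CLOCK was MAPK1IP1L (r = 0.998), that of NPAS2 was ULK4P3 (0.997), that of NR1D2 was METRNL (0.997), that of PER1 was TUT1 (0.996) and that of NR1D1 was KAT5 (0.994). CRY2 was most like GALK1 (0.984), CRY1 like SP3 (0.969), PER2 like SIK1 (0.968) and DBP like VLDLR (0.914). The 8 arrays fall into 2 lines and share 1 slide, so that a gene that differs between the lines resembles many others, and the values are descriptions.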

How the data were processed

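RNA of 8 samples was labelled with Cy3 and hybridised to 8 single-colour Agilent arrays on 1 slide. Each line took a row, with controls before silenced samples, so position and group cannot be told apart. Per the file headers, Agilent Feature Extraction 11.5.1.1 produced a background-subtracted intensity per spot, which the authors deposited on a linear scale (the processing notes name version 10.7.3.1). The log2 value table the authors deposited was found to hold quantile-normalized signals minus each probe's median (r above 0.99 on each array), with its steps not stated, and served as an alternative.

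Outlier spots were dropped, log2 intensities of a probe averaged and the 75th percentile of each array subtracted. Probes were named through RefSeq accessions, and the brightest probe stood for a gene. A gene was tested where, in 1 group or more, both arrays flagged it well above background, 15552 in all, with limma 3.58.1 (R 4.3.3) over all 4 groups, with Benjamini-Hochberg adjustment over all of them and a threshold of 0.05. Intervals cover 95%. A bound (at least N-fold) sets the bright group's mean against, per array of the dim group, the higher of its own signal and the dimmest probe flagged above background. The fit was tested on simulated data.

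The members, the list of other clock genes and the tests were chosen with earlier results of these data known. The rule names all members and SFPQ, other clock genes that passed a comparison or had the 2 highest or 2 lowest average changes among those well above background on all 8 arrays, and for each member the gene with the highest r. Some items are not reported here. The silencing changes of BMAL1 lie outside this rule and were chosen after its values were seen. The alternatives were other scalings, normexp (offset 50) on median pixel intensities, other filters and probe choices, fewer arrays, the replicate block and the omission of single arrays. The replicate block adds a term, shared by the lines, for the difference between the shRNAs and leaves the controls unadjusted. The number of arrays limits the precision.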

Additional observations from a re-analysis of the deposited data

How the results depend on the processing

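With 2 arrays per group the calls of silencing near the threshold moved with the processing. Between the control cells CLOCK, NPAS2, PER1, NR1D1 and NR1D2 passed in 19 of 19 alternatives and PER3 in the 18 that tested it, with values from -4.78 to -2.19 for PER3 and -3.08 to -2.06 for NR1D1. PER2 passed there as the mean of its probes (-0.59, adjusted p = 0.0254), which made 7 genes in place of 6. The number passing in MDAH cells, 0 as reported, was 1 (NR1D1) with quantile normalization, with the authors' value table and with the replicate block, and 0 to 1 when an array was left out (NR1D1 without either silenced SKOV3 array, adjusted p = 0.0443). In SKOV3 cells it was 0 to 1 when an array was left out, with PER2 passing without sh-SFPQ#2. The number passing on average, 2 as reported, was 4 with normexp and quantile normalization, 4 when only genes well above background on all 8 arrays were tested, 4 with the replicate block, 3 after median centring and 3 with the mean of all probes (NR1D1, CRY2 and PER2 in both), and 0 with no filter on dim probes; with an array left out it ranged from 0 to 2. Where 4 passed, they were NR1D1, CRY2, PER1 and PER2.

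The silenced samples share the numbers of their shRNAs across the lines. As a check of a paired reading, the difference between the shRNAs correlated at 0.363 across genes between the lines, and that between the numbered controls at 0.0777, over 2 pairs. The replicate block, which models only the shRNA difference and not the numbered controls, is given as an alternative only.

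Centring each array on its median moved the median change of all genes in MDAH from 0.10 to 0.21, in the difference from 0.12 to 0.26 and between the control lines from -0.05 to -0.21. Changes of sign concerned small values of genes that did not pass. In MDAH cells CRY1 was 0.098 after median centring, and DBP was 0.000516 with quantile normalization, 0.063 after median centring, 0.0044 with normexp and 0.000117 in the authors' table. In SKOV3 cells NR1D2 was -0.014 after median centring and -0.056 as the mean of its probes. CRY2 between the lines was -0.032 after median centring. When an array was left out, the MDAH changes ranged from -0.066 to 0.297 for NPAS2, -0.415 to 0.387 for CRY1 and -0.290 to 0.193 for DBP. In SKOV3 cells they ranged from -0.043 to 0.24 for CLOCK, -0.039 to 0.081 for NR1D2 and -0.694 to 0.072 for DBP. The averages ranged from -0.198 to 0.098 for PER3 and -0.371 to 0.012 for DBP. The differences between the lines ranged from -0.082 to 0.343 for PER1, -0.609 to 0.143 for PER2 and -0.12 to 0.645 for DBP, and DBP between the control lines from -0.489 to 0.276. The cause of these shifts was not tested.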
